A study of Mus musculus with 4 samples.

Results

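The genes described here are Brdt, Brd2, Brd3, Brd7, Brd9, Brd8, Brpf1, Brpf3 and Brwd1, 9 bromodomain genes of the 55,450 genes annotated in the mouse. They were chosen by name as members of the bromodomain family, and a cluster of IGF2BP3 eCLIP-seq reads was given to a gene when its centre lay inside the span of that gene on the same strand (GENCODE M21, build mm10). By this rule, 467 of the 337,234 clusters of replicate 1 and 299 of the 216,354 clusters of replicate 2 belonged to the 9 genes, and each of the 9 genes held clusters in both replicates.

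Bromodomains are protein modules that bind acetylated lysine, above all on histone tails, and bring remodelling, acetyltransferase and transcription complexes to acetylated chromatin. In the testis, histones become hyperacetylated when round spermatids start to elongate, and the testis-specific BET protein BRDT reads that mark before protamines replace the histones. IGF2BP3 is an RNA-binding protein that acts on the stability and translation of the mRNAs it binds.

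eCLIP-seq of IGF2BP3 in the testes of wild type C57BL/6 mice, 8 weeks old, asked which RNAs the protein contacts there. The IP group holds RNA that was crosslinked to protein by UV light and recovered with an IGF2BP3 antibody. The SMInput group holds RNA of the same lysate, of which 2% was kept back, and was made with no antibody. Each group has 2 replicates, and each replicate pairs 1 IP library with 1 SMInput library of whole testis, germ cells and somatic cells together. A signal from more cells of a type and a signal from more bound RNA in each cell therefore cannot be told apart.

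For each cluster, the tables give a log2(fold change), the share of IP reads in the cluster over the share of SMInput reads, and the −log10(P value) of that comparison. A cluster is called significant below when both values are at least 2. The read totals worked out from these values were 5,133,438 IP and 8,706,391 SMInput reads in replicate 1, and 4,637,612 IP and 16,696,122 SMInput reads in replicate 2. SMInput was thus sequenced 1.70 times as deeply as the IP in replicate 1 and 3.60 times as deeply in replicate 2. Against a single SMInput read, a cluster needed 7 IP reads to be significant in replicate 1 and 4 in replicate 2, and against 10 SMInput reads it needed 24 and 12. The intervals given for log2(fold changes) are 95% Clopper-Pearson intervals from the recovered reads, and all intervals cover counting error only. With 1 IP against 1 SMInput in each replicate, each P value compares libraries and not animals.

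Marker genes were checked against the tissue label. Clusters were present in both replicates in 8 of 8 germ cell genes, 4 of 4 Sertoli cell genes and 5 of 5 Leydig cell genes. The 3 genes of other tissues, Alb, Myh6 and Ins2, held 0 clusters in either replicate. Clusters of the testis genes show that their RNA was sequenced, not that it was enriched in the IP. Among the germ cell genes, the protamine gene Prm1 reached 445 IP reads in its deepest cluster of replicate 1 and 375 in that of replicate 2, with 0 significant clusters in either. Prm2, Tnp1, Tnp2 and Sycp3 also had 0 in either replicate. The other germ cell genes held significant clusters in both, Ddx4 11 and 7, Acr 6 and 8, and Ldhc 2 and 6. Among the Leydig cell genes, the hormone gene Insl3 reached 274 and 273 IP reads, with 0 and 3 significant clusters. The deepest clusters of the other Leydig cell genes held 8 to 20 IP reads in replicate 1 and 4 to 16 in replicate 2. Star and Hsd3b1 had 1 and 0 significant clusters, Cyp11a1 0 and 1, and Cyp17a1 0 in either. The Sertoli cell genes reached 4 to 16 and 3 to 15 IP reads. Wt1 had 0 and 6 significant clusters, Gata4 1 and 1, and Sox9 and Amh 0 in either.

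Significant clusters made up a smaller share of the bromodomain clusters than of all clusters. In replicate 1, 17 of 467 bromodomain clusters were significant (3.64%, against 4.92% of all clusters). In replicate 2, 25 of 299 were significant (8.36%, against 13.2% of all clusters). The median log2(fold change) of the bromodomain clusters was 1.11 in replicate 1 and 0.97 in replicate 2, and the medians over all clusters were 1.50 and 1.53.

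Many of the significant bromodomain clusters rested on few reads. Their median was 10 IP reads in replicate 1, with a range of 7 to 27, and 6 IP reads in replicate 2, with a range of 4 to 28. The medians over all significant clusters with reads were 13 and 8 IP reads. In replicate 1, 8 of the 17 held fewer than 10 IP reads, and in replicate 2, 18 of the 25 did. The SMInput held 1 read in 5 of the 17 and in 3 of the 25. In either replicate, 0 of the bromodomain clusters with recovered reads had an interval whose lower bound lay above 2, the threshold itself. The same counts were not made over the whole series, so they do not set the bromodomain clusters apart. In replicate 2, the median over all significant clusters with reads, 8, also lay below 10 IP reads.

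A significant cluster in both replicates was present in 4 of the 9 genes, Brd2, Brd3, Brpf3 and Brwd1. Over the protein-coding genes with clusters in both replicates, 39.1% had one in both. Among the 5881 genes with at least as many clusters as the least covered of the 9, it was 62.8%. The significant clusters of both replicates overlapped in 1 of the 9 genes, Brd3, and in 25.4% of those 5881 genes. Of the 9, Brpf1 alone had no significant cluster in either replicate, as had 8.21% of the 5881 genes. Under another rule, which picks the gene whose start lies closest on either strand, Brpf1 had 2 significant clusters in replicate 1. Those 2 lie outside the span of Brpf1 or on the other strand. The other 4 genes, Brdt, Brd7, Brd9 and Brd8, had significant clusters in replicate 2 and none in replicate 1.

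**Figure D1:**
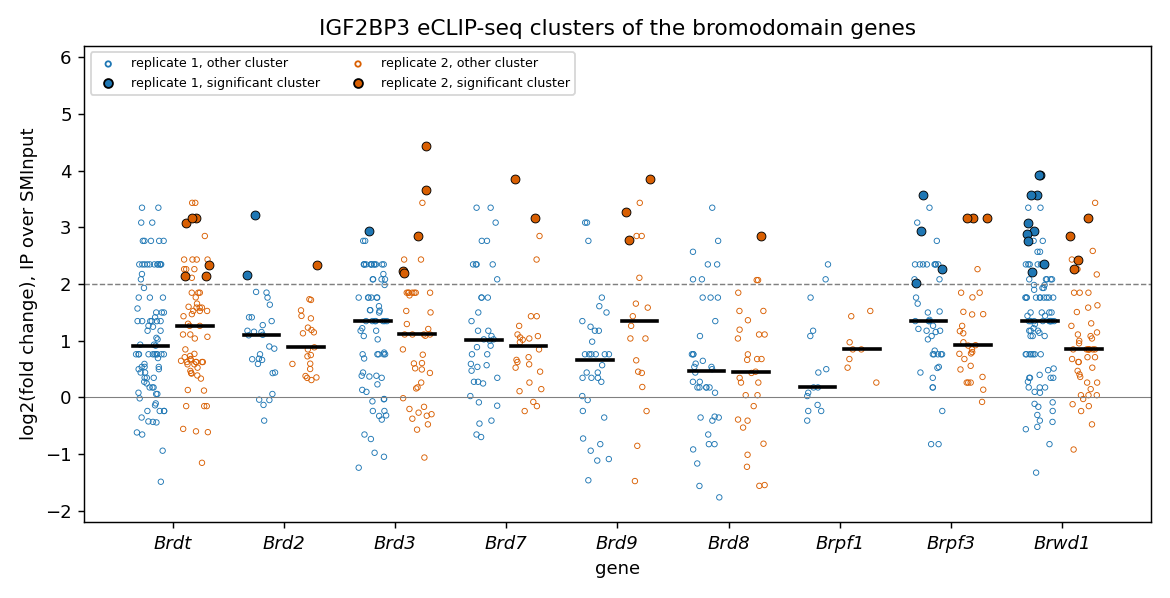
Each point is a cluster of a bromodomain gene, with its log2(fold change) of IP over SMInput on the vertical axis, replicate 1 on the left and replicate 2 on the right of each gene. Filled points are the 17 and 25 significant clusters, bars are medians and the dashed line is the threshold of 2. Brdt, Brd7, Brd9, Brd8 and Brpf1 have no filled point in replicate 1.

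Brdt, the BET protein specific to male germ cells, spans chr5:107331159-107387058 on the plus strand, with 19 exons and a 3′UTR of 1532 bases. It held 91 clusters in replicate 1 and 67 in replicate 2, with median log2(fold changes) of 0.91 and 1.26. Of these, 0 of 91 and 6 of 67 were significant. Among the 612 protein-coding genes with at least 91 clusters in replicate 1, 8.99% had no significant cluster there. The clusters of Brdt with the highest −log10(P value) in replicate 1, 1.91, lay in introns 6 and 7, at chr5:107348657-107348700 and chr5:107352684-107352721, each with 6 IP reads and 1 SMInput read. Against that 1 SMInput read, 7 IP reads would have passed.

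The 3′UTR of Brdt held 3 clusters in replicate 2, and all 3 were significant. The first, chr5:107385521-107385596, spans the stop codon at chr5:107385524-107385526 and held 11 IP and 9 SMInput reads, a log2(fold change) of 2.14 (0.73 to 3.59). The next, chr5:107385728-107385746, held 7 IP and 5 SMInput reads, a log2(fold change) of 2.33 (0.46 to 4.33). The last of them, chr5:107385872-107385956, had the most reads of these 3, with 22 IP and 18 SMInput reads. Its log2(fold change) was 2.14 (1.17 to 3.12), its −log10(P value) 6.04, and its P value adjusted over all clusters of replicate 2 was 2.52e-05. The adjusted P of the other 2 was 0.0129 and 0.0452, above 0.01, so of the 6 significant clusters of Brdt this is the 1 that also passes with adjusted P values. Repeats cover 87.1% of its bases.

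Replicate 1 also held 3 clusters in that 3′UTR, none of them significant. The cluster chr5:107385852-107385993 covers the last of the replicate 2 clusters and held the same read numbers, 22 IP and 18 SMInput reads. Against the totals of replicate 1 they give a log2(fold change) of 1.05 (0.09 to 2.04), so the call differs by the library totals and not by the reads. Over both replicates together, the Mantel-Haenszel log2(fold change) of this site was 1.55 (0.91 to 2.19), higher in the IP in both replicates, with an adjusted P of 7.49e-06 (exact test). The site thus lay above 0 in both replicates, with a pooled value below 2. Here and below, only pairs above 0 in both replicates could be pooled, a choice that by itself favours low pooled P values. The 2 replicate 2 clusters nearer to the stop codon met no cluster of replicate 1.

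The other 3 significant clusters of Brdt in replicate 2 were intronic. Those with the highest log2(fold change), 3.17 (0.56 to 6.56), lay in intron 1 at chr5:107335776-107335823 and in intron 4 at chr5:107344079-107344137, with 5 IP and 2 SMInput reads each. Repeats cover 54.2% and 86.4% of their bases. The one in intron 3, chr5:107342765-107342835, held 7 IP and 3 SMInput reads, and a cluster of replicate 1 with 4 IP and 1 SMInput reads lay within it. Their log2(fold changes) were 3.07 and 2.76, and the pooled value was 2.97 (1.28 to 4.65, adjusted P 6.73e-04, exact test). This intronic site was the 1 pair of Brdt clusters with a pooled value of at least 2.

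Brd2, a BET protein expressed in most tissues, spans chr17:34112023-34122634 and had the deepest clusters of the 9 genes. Its 29 clusters in replicate 1 and 21 in replicate 2 gave 2.73 and 1.98 clusters per kilobase of gene span, introns included. This was more than in any of the other 8 genes in either replicate, and Brd2 has the shortest span of the 9, 10.6 kilobases. The deepest cluster lay in exon 6 of the coding sequence, chr17:34115368-34115461, with 108 IP and 82 SMInput reads in replicate 1 and 108 IP and 134 SMInput reads in replicate 2. Its log2(fold changes) were 1.16 and 1.54, and the pooled value was 1.36 (1.08 to 1.63, adjusted P 3.50e-20, exact test). The neighbouring pair in exon 6, with 51 and 54 IP reads, had log2(fold changes) of 1.85 and 1.72. The 3′UTR pair with the most IP reads over both replicates, 85 and 61, had values of 1.11 and 1.44. The other 3′UTR pair, with 58 and 71 IP reads, had values of 0.43 and 1.19.

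Of the 13 Brd2 pairs with reads in both replicates, 7 were enriched over both replicates at an adjusted P of at most 0.01, and in 0 of 13 did the pooled value reach 2. The upper bound of the pooled value lay below 2 in 11 of the 13. The pair in exon 6 with 51 and 54 IP reads is 1 of the other 2, with a pooled value of 1.77 (1.35 to 2.20). The significant clusters of Brd2 held 11 to 21 IP reads. In replicate 1 they were chr17:34116244-34116257 in exon 4 of the coding sequence, at 3.22 (11 IP and 2 SMInput reads), and chr17:34119239-34119292 in the 5′UTR, at 2.15 (21 and 8 reads). In replicate 2 it was chr17:34113952-34114033 in exon 9, at 2.33 (21 and 15 reads), of which repeats cover 67.1%.

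Brd3, the third BET gene of the list, spans chr2:27445579-27507662 on the minus strand and held the 1 site that was significant in both replicates. The clusters chr2:27445788-27445833 of replicate 1 and chr2:27445753-27445833 of replicate 2 share 46 bases of exon 12, in the 3′UTR of 2886 bases, and their centres lie 231 and 214 bases before its end. Replicate 1 held 9 IP and 2 SMInput reads there, and replicate 2 held 13 IP and 10 SMInput reads. The log2(fold changes) were 2.93 (0.66 to 6.18) and 2.23 (0.92 to 3.58), with −log10(P values) of 2.49 and 3.53. Adjusted over all clusters of each replicate, the P values were 0.062 and 4.20e-03, so the call in replicate 1 is lost with adjusted P values, and with at least 10 IP reads as well. The pooled value was 2.44 (1.39 to 3.49, adjusted P 1.54e-05, exact test). The closest gene start to both clusters, on either strand, is that of Brd3os, so a rule of closest starts counts the site under Brd3os. Such a rule takes no account of strand or exons, and both clusters lie on the strand of Brd3, in its exon 12. That rule also gives the significant 3′UTR clusters of Brdt to Ephx4, those of Brpf3 to Pnpla1, those of Brwd1 to Psmg1 and that of Brd8 to Brd8dc.

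Brd3 had 4 further significant clusters in replicate 2. Those in the 3′UTR, chr2:27447880-27447942 and chr2:27447247-27447255, had log2(fold changes) of 2.85 (14 IP and 7 SMInput reads) and 3.66 (7 and 2 reads). No cluster of replicate 1 overlapped either of them. The cluster in exon 4 of the coding sequence, chr2:27462421-27462541, held 28 IP and 22 SMInput reads in replicate 2, the most IP reads of the 25 significant clusters. Its log2(fold change) was 2.20 (1.34 to 3.07), the overlapping cluster of replicate 1 was at 1.54 with 24 IP and 14 SMInput reads, and the pooled value was 1.89 (1.27 to 2.51). The highest log2(fold change) of the 42 significant clusters, 4.43, was that of chr2:27504444-27504536, with 6 IP reads against 1 SMInput read, inside the gene span but outside its basic transcripts.

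Brd7 and Brd9 are subunits of SWI/SNF chromatin remodellers, Brd7 of the PBAF form and Brd9 of the non-canonical BAF form. Brd7 held 40 clusters in replicate 1 and 26 in replicate 2, of which 0 and 2 were significant, both in introns. The one with the higher log2(fold change), 3.85, was chr8:88346072-88346120 in intron 7, with 4 IP reads and 1 SMInput read. The other, chr8:88340635-88340707 in intron 11, had a value of 3.17 with 5 IP and 2 SMInput reads. It covers a replicate 1 cluster at 3.35 with 6 IP reads and 1 SMInput read, and the pooled value was 3.25 (1.35 to 5.16, adjusted P 5.83e-04, exact test). The 3′UTR of Brd7 held 0 clusters in replicate 1 and 3 in replicate 2, none significant.

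Brd9 held 34 and 20 clusters, of which 0 and 3 were significant, all 3 in introns. The cluster with the most reads, chr13:73939188-73939265 in intron 3, had 19 IP and 10 SMInput reads and a log2(fold change) of 2.77 (1.60 to 4.04), and lies wholly within repeats (100% of its bases). The replicate 1 cluster that overlaps it, chr13:73939194-73939238, was not enriched, with a log2(fold change) of −0.24 and a −log10(P value) of 0, so the replicates differ in direction at this site. The highest value, 3.85, was that of chr13:73945789-73945807 in intron 8, with 4 IP reads and 1 SMInput read. The remaining one, chr13:73943464-73943554 in intron 7, was at 3.26 with 8 and 3 reads. The 3′UTR of Brd9 held 4 clusters in replicate 1 and 0 in replicate 2. Of its 5 pairs of overlapping clusters, 2 had reads in both replicates, and 0 of these 2 passed an adjusted P of 0.01 over both replicates (exact test).

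Brd8 is a subunit of the NuA4/TIP60 acetyltransferase complex. Its 40 and 31 clusters had median log2(fold changes) of 0.47 and 0.46, and 0 and 1 were significant. That cluster, chr18:34598722-34598787 in the 3′UTR of 1567 bases, held 6 IP and 3 SMInput reads, a log2(fold change) of 2.85 (0.62 to 5.48). The coding clusters of Brd8 had median values of −0.35 and −0.15, below the level of the SMInput. In intron 14, a pair of clusters that share 4 bases had values of 2.57 (7 IP and 2 SMInput reads) and 2.07 (7 and 6 reads). Neither was significant alone, and the pooled value was 2.27 (0.98 to 3.57, adjusted P 1.40e-03, exact test).

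Brpf1 and Brpf3 are scaffold proteins of the MOZ, MORF and HBO1 histone acetyltransferase complexes, and the tables differ between them. Brpf1 held 15 and 8 clusters, the fewest of the 9 genes. Read numbers were recovered for 8 of the 15 and 8 of the 8, and the highest was 6 IP reads in each replicate. Its highest −log10(P values) were 1.07 in replicate 1, at chr6:113324674-113324722 in the 3′UTR (6 IP and 3 SMInput reads), and 0.96 in replicate 2, at chr6:113320434-113320485 in exon 10 (4 and 5 reads). The other 7 clusters of replicate 1 were listed at a −log10(P value) of 0.

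Brpf3 held 47 and 29 clusters, of which 4 and 3 were significant, at different places. In replicate 1, 3 of the 4 lay in the 3′UTR. The strongest, chr17:28838292-28838363, held 27 IP and 6 SMInput reads, a log2(fold change) of 2.93 (1.63 to 4.50), with an adjusted P of 2.15e-05 over all clusters of replicate 1. The overlapping cluster of replicate 2 held 17 IP and 18 SMInput reads, a value of 1.77, and the pooled value was 2.30 (1.55 to 3.05, adjusted P 7.56e-09, exact test). This was the best supported of the sites with a pooled value of at least 2 among the 9 genes, by its adjusted P.

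The other 3′UTR clusters of Brpf3 that were significant in replicate 1 were chr17:28837816-28837854, at 2.26 with 17 IP and 6 SMInput reads, and chr17:28837020-28837035, at 2.03 with 12 and 5 reads. The latter met a replicate 2 cluster at 1.47. The highest value in replicate 1, 3.57, was that of the intron 9 cluster chr17:28828090-28828140, with 7 IP reads and 1 SMInput read. In replicate 2, the 3 significant clusters lay in introns 1 and 2, at chr17:28801868-28801896, chr17:28804407-28804514 and chr17:28809559-28809591, each at 3.17 with 5 IP and 2 SMInput reads. Repeats cover 75.9%, 22.2% and 21.2% of their bases.

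All 12 and 9 3′UTR clusters of Brpf3 had their centres in the first 1661 bases of the 3′UTR, which is 3256 bases long in the longest transcript. A pair of shorter basic transcripts ends after those 1661 bases. Of the 12 pairs of Brpf3 clusters with reads, 9 were enriched over both replicates at an adjusted P of at most 0.01, all 9 in the 3′UTR, with pooled values from 1.13 to 2.30. These 9 pairs hold 7 clusters of replicate 2 and are not independent of each other. The pairs of Brpf3 enriched over both replicates thus lay in the 3′UTR, and 8 of the 9 had a pooled value below 2.

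Brwd1, which joins WD repeats to bromodomains and is needed for the development of sperm, spans chr16:95992092-96082526 on the minus strand. It held 99 and 52 clusters, of which 10 and 4 were significant, the most of the 9 genes in replicate 1. With P values adjusted over all clusters of a replicate, 0 and 0 were, so this rank does not hold under that rule, and with at least 2 SMInput reads, a minimum chosen after seeing the data, the count in replicate 1 was 6. In replicate 1, 5 of the 10 lay in introns, 4 in the 3′UTR and 1 in exon 10 of the coding sequence. The highest value, 3.93, was shared by chr16:96037496-96037563 in intron 22 and chr16:96060415-96060508 in intron 9, with 9 IP reads and 1 SMInput read each. Repeats cover 0% of the bases of the cluster in intron 22 and 100% of those of the cluster in intron 9. The deepest of the 10 was chr16:96078147-96078272 in intron 4, with 13 IP and 3 SMInput reads and a value of 2.88, of which repeats cover 53.2%. Of the 4 in replicate 2, the highest value was 3.17, at chr16:96079705-96079737 in intron 4, with 5 IP and 2 SMInput reads.

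The significant 3′UTR clusters of Brwd1 all lay in the 3′UTR of a transcript with 41 exons, chr16:95999271-96002188, which is 2918 bases long. It held 13 clusters in replicate 1, of which 4 were significant, and 4 clusters in replicate 2, of which 1 was. The 3′UTR of the longest transcript, with 42 exons, is 1506 bases long and held 2 clusters in replicate 1 and 0 in replicate 2. The replicate 2 cluster chr16:96000320-96000345, with 6 IP and 4 SMInput reads, had a value of 2.43. It met a replicate 1 cluster at 1.98 with 7 and 3 reads, and the pooled value was 2.20 (0.85 to 3.55, adjusted P 2.56e-03, exact test). The nearest significant cluster of replicate 1, chr16:96000355-96000411, at 3.08 with 10 IP and 2 SMInput reads, lies 9 bases away from it without overlap.

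**Figure D2:**
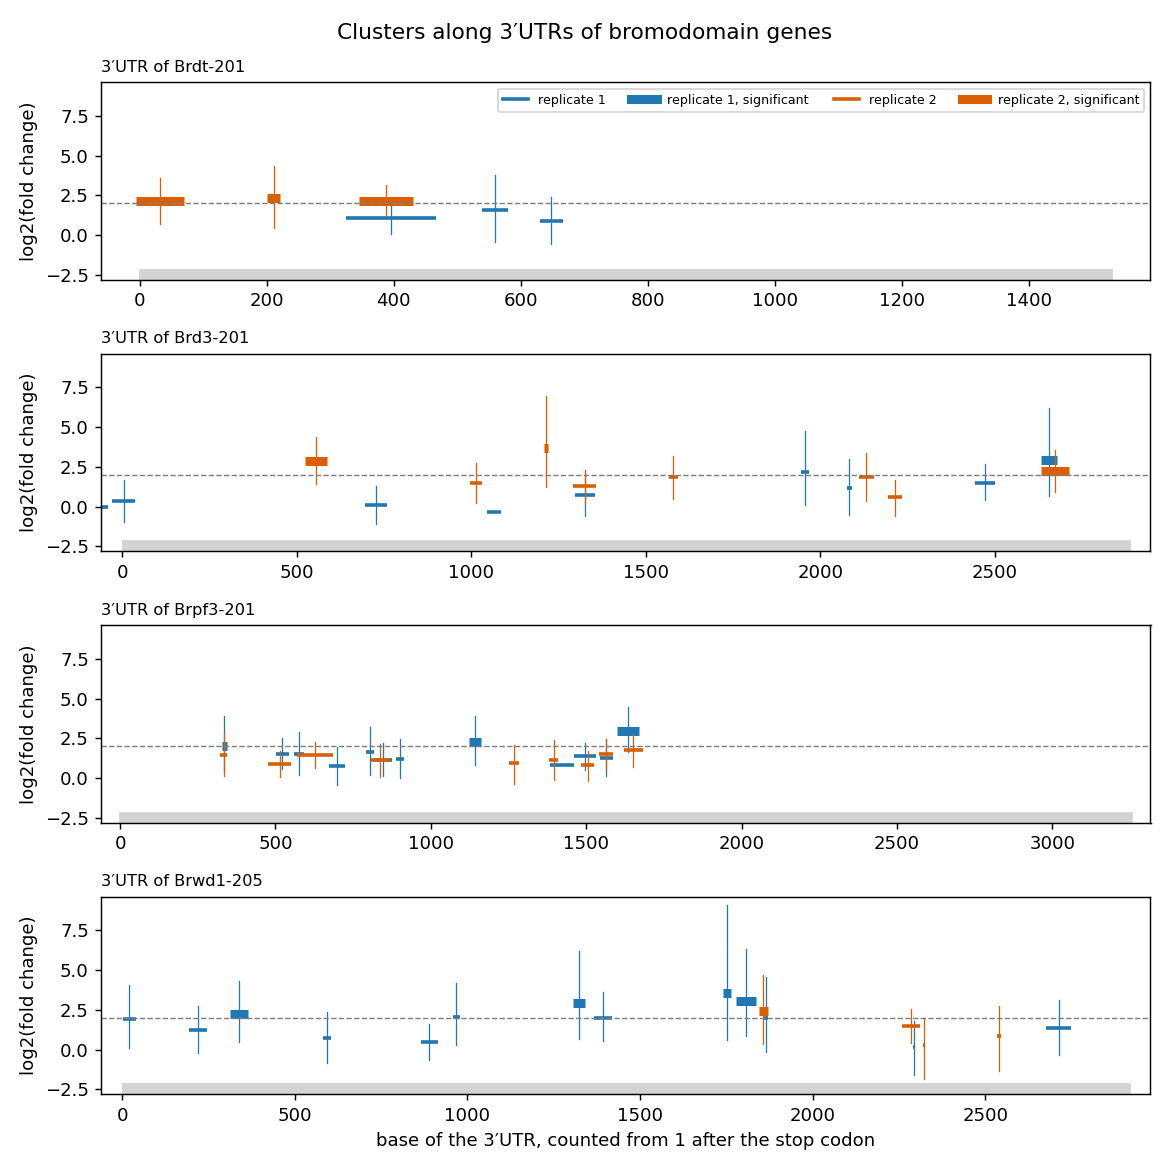
Clusters along the 3′UTRs of Brdt, Brd3, Brpf3 and the 41-exon transcript of Brwd1, by base after the stop codon, with log2(fold change) on the vertical axis, 95% intervals as thin lines and thick bars for significant clusters. The overlapping thick bars of both colours near the end of the Brd3 panel are the site significant in both replicates, and grey bars mark the 3′UTRs of 1532, 2886, 3256 and 2918 bases.

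By region, the share of significant clusters was highest in 3′UTRs, as it was over all clusters. The bromodomain shares lay below those of all clusters in 3′UTRs and coding sequence. In introns they lay above them in replicate 1 and near them in replicate 2. In 3′UTRs, 8 of 60 clusters were significant in replicate 1 (13.3%, against 19.4% of all 3′UTR clusters) and 8 of 34 in replicate 2 (23.5%, against 34.5%). In the coding sequence, 2 of 157 (1.27%, against 5.28%) and 3 of 130 (2.31%, against 7.96%) were. In introns, 6 of 214 (2.80%, against 1.94%) and 13 of 114 (11.4%, against 10.8%) were. In 5′UTRs, 1 of 11 (9.09%, against 5.09%) and 0 of 14 (against 8.63%) were. The median log2(fold change) of the coding clusters was 0.28 and 0.44, against 0.76 and 0.93 for all coding clusters.

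Among the significant bromodomain clusters, 47.1% lay in 3′UTRs in replicate 1 (8 of 17, 95% Wilson interval 26.2 to 69.0) and 32.0% in replicate 2 (8 of 25, 17.2 to 51.6). Over all significant clusters the shares were 43.2% and 36.6%, each inside the interval of its replicate. Among the bromodomain clusters that were not significant, 11.6% and 9.49% lay in 3′UTRs.

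The replicates were also compared site by site. Of the bromodomain clusters of replicate 1, 139 of 467 (29.8%) overlapped a cluster of replicate 2, and over all clusters the share was 24.9%. In 89 of the 139 pairs both values were above 0, against 76.8% of the pairs over all clusters, and in 15 both were at or below 0, against 4969 of all 83,829 pairs. Of the significant clusters, 3 of 17 in replicate 1 and 7 of 25 in replicate 2 overlapped any cluster of the other replicate, against 53.4% and 41.7% of all significant clusters. Read numbers could be recovered in both replicates for 78 pairs. Pairs with a −log10(P value) listed as 0 in either replicate have none, so every pair with reads lay above 0 in both replicates. The pooled P values of such pairs are lower than they would be without this choice.

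Over both replicates together, 32 of the 78 pairs were enriched at an adjusted P of at most 0.01, against 43.8% of all 61,521 pairs with reads. Both sets hold only pairs above 0 in both replicates, so neither share measures how often enrichment was reproduced. The 32 pairs hold 30 clusters of replicate 2, since 2 of those in the Brpf3 3′UTR each overlap 2 clusters of replicate 1 and enter 2 pairs. The pooled log2(fold change) was also at least 2 in 6 of the 78, against 17.9% of all pairs. These 6 were the sites given above in the 3′UTRs of Brd3, Brpf3 and Brwd1 and in the introns of Brdt, Brd7 and Brd8, 1 for each gene. In 52 of the 78 pairs the upper bound of the pooled value lay below 2, 11 of them in Brd2.

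**Figure D3:**
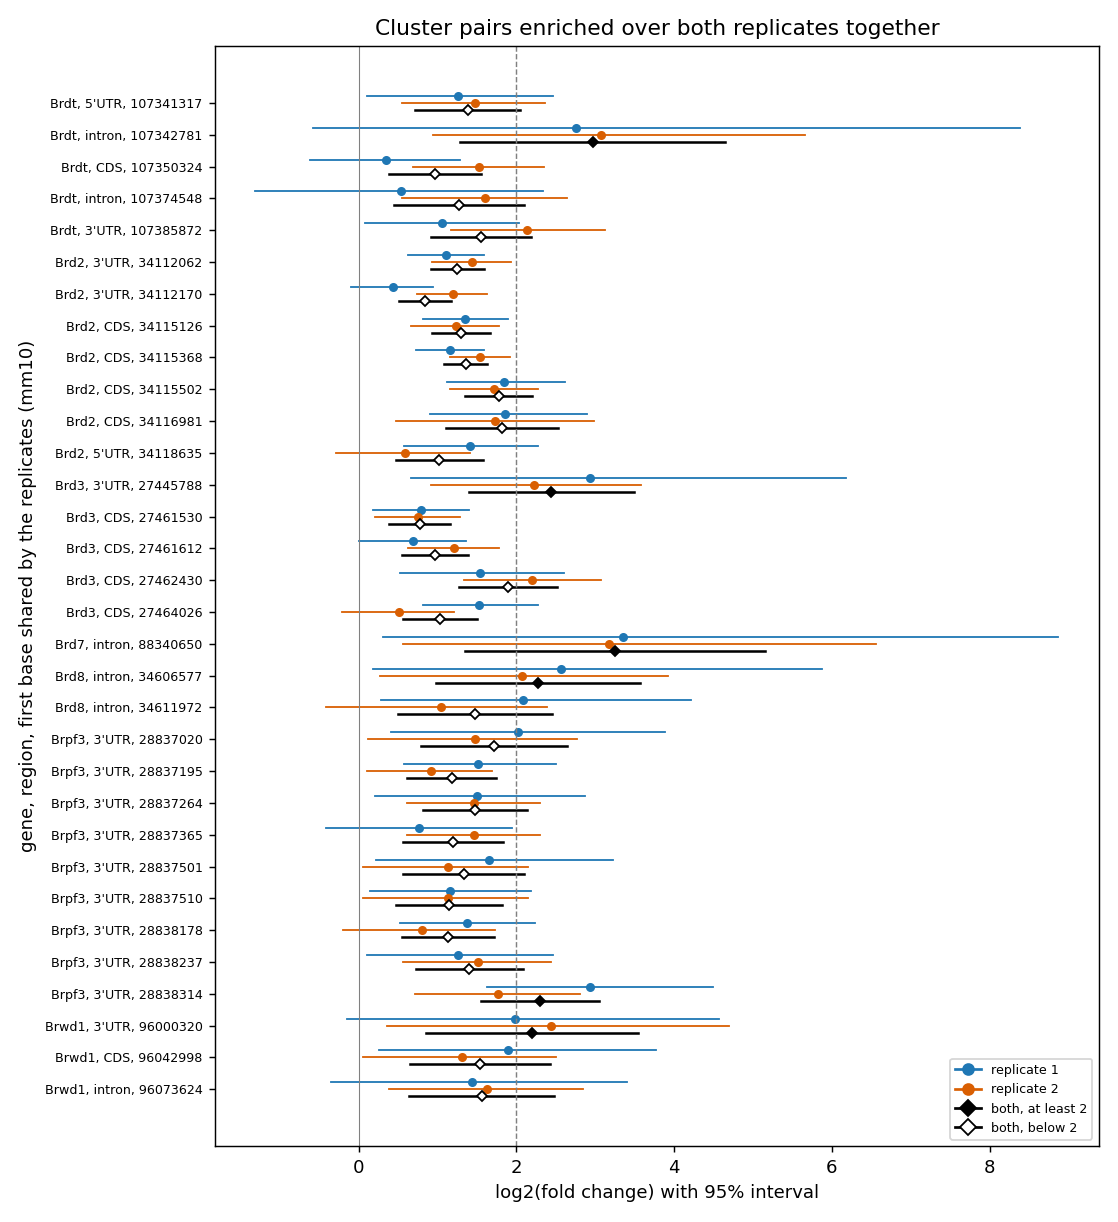
The 32 pairs of overlapping clusters of the bromodomain genes with an adjusted P of at most 0.01 over both replicates, with the log2(fold change) and 95% interval of replicate 1, replicate 2 and both together. Filled diamonds are the 6 pairs with a pooled value of at least 2 (dashed line), and the narrowest intervals are those of the deepest Brd2 pair, in exon 6.

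The bases that both replicates share at sites named above are printed on the strand of the transcript, 5′ to 3′, from mm10, so that the contacted RNA can be read beside its values. Up to 30 bases around the middle of each overlap are given, for 5 of the 6 sites with a pooled value of at least 2 and for the deepest 3′UTR site of Brdt. For Brdt, the first 30 bases of the cluster over the stop codon are added, with the stop codon in capitals.
Brd3, 3′UTR, chr2:27445796-27445825: tgtgcatgcaagtttaccgtaacttttctt
Brpf3, 3′UTR, chr17:28838324-28838353: gcacagggcctcttctctgtctggtctgct
Brwd1, 3′UTR, chr16:96000320-96000332: cttgtgaagtcaa
Brd7, intron 11, chr8:88340653-88340682: gaaggaggtgcatttaactctgatctctca
Brdt, intron 3, chr5:107342781-107342810: gggtcataaaagatgctactttcaagcctt
Brdt, 3′UTR, chr5:107385899-107385928: ttggttagttggtttgtgtccttgtttgag
Brdt, stop codon, chr5:107385521-107385550: gatTAAaactcagtttgtaaattaaccctc

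Windows of 100 bases around the cluster centres were searched for 3 motifs of 5 letters on the strand of the transcript. GAACA was present in 0 of 17 and 0 of 25 windows of significant bromodomain clusters. It was present in 8.87% and 8.38% of the windows of all significant clusters, and in 9.38% and 8.96% of those of all clusters. The counts of 0 say no more than that these letters are not in those windows. AAACC was present in 2 and 2, at the cluster in the Brdt 3′UTR with the most reads, the Brd8 3′UTR cluster, and 1 cluster each of Brpf3 and Brwd1. Its shares were 8.65% and 8.14% over all significant clusters, and 7.67% and 7.24% over all clusters. TGGAC was present in 3 and 1, of which 3 lie in the Brwd1 3′UTR and 1 in a Brpf3 intron. Its shares were 9.63% and 8.88% over all significant clusters, and 8.75% and 9.13% over all clusters. The median share of G and C was 47.0% and 46.0% in the windows of significant bromodomain clusters. It was also 47.0% and 46.0% over all significant clusters, and 46.0% and 47.0% over all clusters.

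A list of 30 other bromodomain genes gives the wider family. Clusters were present in both replicates in 28 of them, with 1959 in replicate 1 and 1215 in replicate 2. Of these clusters, 62 (3.16%) and 105 (8.64%) were significant, shares below those of all clusters, as for the 9 genes. No significant cluster was present in either replicate in 5 of the 30, Kat2a, Taf1, Zmynd8, Sp110 and Sp140, against 8.21% of the 5881 genes given above. Sp110 and Sp140 held 0 clusters, Kat2a 11 in replicate 1 and Taf1 4 in replicate 2. All but Zmynd8 of these 5 thus held fewer clusters in a replicate than the least covered of the 9 genes, and fall outside the 5881. A significant cluster was present in both replicates in 19 of the 30, and 8 had overlapping significant clusters, against 62.8% and 25.4% of the 5881 genes. Since the 30 include such sparsely covered genes, these shares are not of like groups. Among the 8, the SWI/SNF ATPase gene Smarca2 had an intronic site at 3.57 in replicate 1 and 3.85 in replicate 2, whose clusters share 2 bases, on 7 and 4 IP reads against 1 SMInput read each. Cecr2, Baz1a and Bptf, which code for subunits of ISWI-type remodellers, had sites at 2.64 and 3.43 in the coding sequence, 2.57 and 3.26 in the 3′UTR, and 2.50 and 4.17 in the 3′UTR.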

How the data were processed

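IGF2BP3 eCLIP-seq of mouse testis was used in 4 samples, 2 IP and 2 SMInput, paired by replicate. The authors trimmed adapters with cutadapt, removed ribosomal RNA reads with Bowtie2, aligned to mm10 with STAR, collapsed PCR duplicates by molecular identifiers, called clusters with Clipper and compared the reads of each cluster between IP and SMInput. The deposited log2 values are the authors' ratios of the IP share to the SMInput share of reads. P values are deposited as −log10 values, from Yates' chi-square or Fisher's exact test as the authors ran it, with 400 as the highest value. A value of 0 is listed for clusters without IP enrichment and for some with a log2(fold change) slightly above 0, such as 0.18. Positions are counted from 1.

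Library totals and reads of each cluster were found as the whole numbers that return both listed values. A single solution existed for 99.9% and 99.96% of the clusters with a −log10 value between 0 and 400. Clusters listed at 0 have no recovered reads and are left out where reads are used. Overlapping clusters of both replicates were pooled with the replicate as a block (Mantel-Haenszel estimate and two-sided exact conditional test), each replicate 1 cluster with the replicate 2 cluster that shares the most bases, and P values were adjusted by the Benjamini-Hochberg method over 61,521 pairs. P values of single replicates were adjusted over all clusters of that replicate. Regions came from basic transcripts of GENCODE M21, 3′UTR before coding sequence, 5′UTR, non-coding exon and intron. Python 3.11.15, numpy 2.4.6, pandas 2.3.3, scipy 1.17.1 and matplotlib 3.10.9 were used.

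The genes and lists were chosen with earlier results of these data known, so counts of the 9 genes are set beside those of all clusters with no test between them. All 9 genes are named. The rule for the clusters described took those significant in both replicates and overlapping, otherwise the significant cluster with the highest log2(fold change) of each replicate, otherwise the one with the highest −log10(P value). The other clusters described were chosen after their values were seen. Of the other bromodomain genes, up to 5 with overlapping significant clusters and the largest smaller value are named, of which 1 is not reported here. Alternatives covered the thresholds, adjusted P values, minimum reads, the rule that gives a cluster its gene, the overlap, the order of regions and the transcripts, the pooled estimate and each replicate alone.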

Additional observations from a re-analysis of the deposited data

How the results depend on the processing

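The counts of significant bromodomain clusters depended on the thresholds. From 17 in replicate 1 and 25 in replicate 2, they went to 3 and 3 with both thresholds at 3, to 2 and 9 with P values adjusted over all clusters, to 9 and 7 with at least 10 IP reads, and to 11 and 14 with the gene of the nearest transcription start site. The stricter thresholds and minimum can only lower a count by construction. The nearest start site is a different rule and not a stricter one. It raised Brpf1 from 0 to 2 significant clusters in replicate 1. Those 2 lie outside the span of Brpf1 or on the other strand, so inside its span Brpf1 still had 0. The nearest start rule takes no account of strand or exons, and took Brd3 from 1 and 5 to 0 and 0. It also took Brdt from 6 to 3 and Brd8 from 1 to 0 in replicate 2, Brpf3 from 4 to 1 in replicate 1, and Brwd1 from 10 and 4 to 6 and 2. With adjusted P values, Brwd1 went from 10 and 4 to 0 and 0, and Brdt from 6 to 1 in replicate 2. At least 2 SMInput reads, an alternative chosen after seeing the data, gave 12 and 22, within 1.5 times the main counts, though Brwd1 went from 10 to 6 in replicate 1 and Brd7 from 2 to 1 in replicate 2, and clusters wholly inside the gene span gave 17 and 25.

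The 4 genes with a significant cluster in both replicates became 0 with both thresholds at 3, 1 with adjusted P values and 1 with at least 10 IP reads. With 1 replicate left out, 4 to 8 genes had a significant cluster in the other. The 1 site significant in both replicates became 0 with both thresholds at 3, with adjusted P values and with at least 10 IP reads. It was 1 with an overlap of at least 50% and with at least 2 SMInput reads. By the nearest start site, both of its clusters are counted under Brd3os, though they lie in the 3′UTR of Brd3 on its strand. With the replicate as a block, also chosen after seeing the data, 6 sites passed. The log2(fold change) of the Brd3 site, 2.23 in the lower replicate, was 2.44 with the replicate as a block, and 2.23 to 2.93 with 1 replicate left out.

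The 3′UTR share of the significant clusters of replicate 1, 47.1%, went to 0% with both thresholds at 3, on 3 clusters, and that of replicate 2 was 33.3% there, also on 3. Of the 18 counts by gene and replicate, 12 were lower with both thresholds at 3, 10 with adjusted P values, 10 with at least 10 IP reads and 5 with at least 2 SMInput reads, and with the nearest start site 7 were lower and 1 was higher. The median significant bromodomain cluster held 10 and 6 IP reads, against 13 and 8 over all significant clusters, and the part of depth in the calls was not tested.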
